A study of Mus musculus with 8 samples.

Results

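The collagen genes of the mouse aorta were described across 8 RNA sequencing libraries. Members were all rows of the deposited table whose gene symbol consists of Col, a type number, the letter a and a chain number, a rule that uses names and no measured values. It gave 44 genes of 48587 symbols. They were sorted by known function into 8 fibrillar, 8 basement membrane, 7 cartilage and 21 other collagens, and 34 of the 44 passed the filter on low counts. The 10 others had 7 to 62 reads each, summed over all libraries, and were not tested in the fit of all 8 libraries.

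Each library held RNA of the whole aortic tree, and each of 4 groups held 2 libraries. Tet2KO VitD and Tet2KO vehicle libraries came from mice labelled with a knockout of Tet2 in vascular smooth muscle cells, given VitD (vitamin D) or vehicle. WT VitD and WT vehicle libraries came from control mice of the same litters under the same 2 treatments. The study asks about Tet2 of smooth muscle, whose protein oxidises the methyl mark on DNA cytosines, and calcification of the arterial media, which excess vitamin D is known to provoke. The sources used here give no dose, duration, age, strain, Cre driver or number of mice per library. No source says whether the 2 libraries of each group are different mice. The p-values therefore describe the spread of these 8 libraries alone, and that spread may be technical.

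Collagens are trimers of alpha chains wound into a triple helix, and each chain has its own gene. Fibrillar collagens (types I, III and V in vessel walls) form the cables that limit how far an artery stretches. Type IV collagen forms the sheet of the basement membrane around smooth muscle and under endothelium, and types XV and XVIII are proteoglycans of the same zone. Type VI forms beaded filaments, type VIII a short-chain network known from endothelium and injured vessels, and types XII, XIV, XIX and XX sit on or near fibrils. Types II, IX, X and XI are the collagens of cartilage.

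The libraries held 15679274 to 22332149 counts, and values below are CPM (counts scaled to library size after TMM normalisation) unless a share is named. All 8 smooth muscle markers were present in each library, with a summed level of 20323 and 28046 CPM in Tet2KO VitD, 29774 and 27664 CPM in Tet2KO vehicle, 22484 and 15169 CPM in WT VitD, and 28927 and 30000 CPM in WT vehicle. Tet2 was not lower where a knockout was labelled, with 42.0 and 35.2 CPM in Tet2KO vehicle against 35.8 and 32.2 CPM in WT vehicle (log2 0.18, SE 0.21). With VitD it had 26.6 and 37.6 CPM under the knockout label against 18.3 and 20 CPM in WT, with no overlap (log2 0.74, SE 0.213, edgeR adjusted p = 0.457). In WT, Tet2 itself was called lower with VitD than with vehicle (log2 -0.83, SE 0.213, edgeR adjusted p = 0.0305). Which part of the gene was deleted is unknown here, so its count checks the label only in part, and each genotype direction rests on that label. The library names carry numbers in 2 ranges, which the labels do not call batches. Tet2KO VitD library 1 and both WT VitD libraries have numbers of the higher range, and the other 5 have numbers of the lower range, so in WT the number range and VitD cannot be told apart. The 2 Tet2KO VitD libraries stood apart from each other. Their collagen values differed by a median of 0.721 on the log2 scale over the 34 tested genes, against 0.361 over all 16194 genes tested, and 28 of the 34 were lower in library 1.

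Collagen RNA in the aorta was dominated by types III and I. The 44 genes took 1.39% and 2.0% of all counts in Tet2KO VitD, 1.92% and 1.67% in Tet2KO vehicle, 1.69% and 2.35% in WT VitD, and 1.59% and 1.68% in WT vehicle. Col1a1, Col1a2 and Col3a1 together made up 46.2% to 57.8% of collagen counts in each library. Per kb of transcript, averaged over the 8 libraries, Col3a1 was highest with 685 CPM per kb, followed by Col1a2 with 552, Col1a1 with 398 and Col18a1 with 318. The basement membrane chain gene Col4a1 was next at 184 CPM per kb, followed by Col6a1 with 153 and by Col6a2 and Col4a2 with 145 each. The cartilage class was at the other end, since none of its 7 genes averaged above 0.925 CPM per kb, the level of Col11a2.

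Summed over each class, the fibrillar collagens reached 10493 and 16145 CPM in WT VitD against 8721 and 8674 CPM in WT vehicle. Both WT VitD libraries were above both WT vehicle libraries, with a wide gap between the 2 VitD libraries themselves. Under the knockout label the sums were 8064 and 10876 CPM with VitD against 11042 and 9936 CPM with vehicle, and the groups overlapped. The basement membrane sum was 5459 and 5659 CPM in WT VitD against 4336 and 5162 CPM in WT vehicle, and 4353 and 6097 CPM in Tet2KO VitD against 4928 and 4343 CPM in Tet2KO vehicle. The other collagens summed to 1964 and 2387 CPM in WT VitD against 2470 and 2493 CPM in WT vehicle. Fewer cells of a type and less RNA per cell cannot be told apart in RNA of a whole tissue, here or in any value below.

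**Figure D1:**
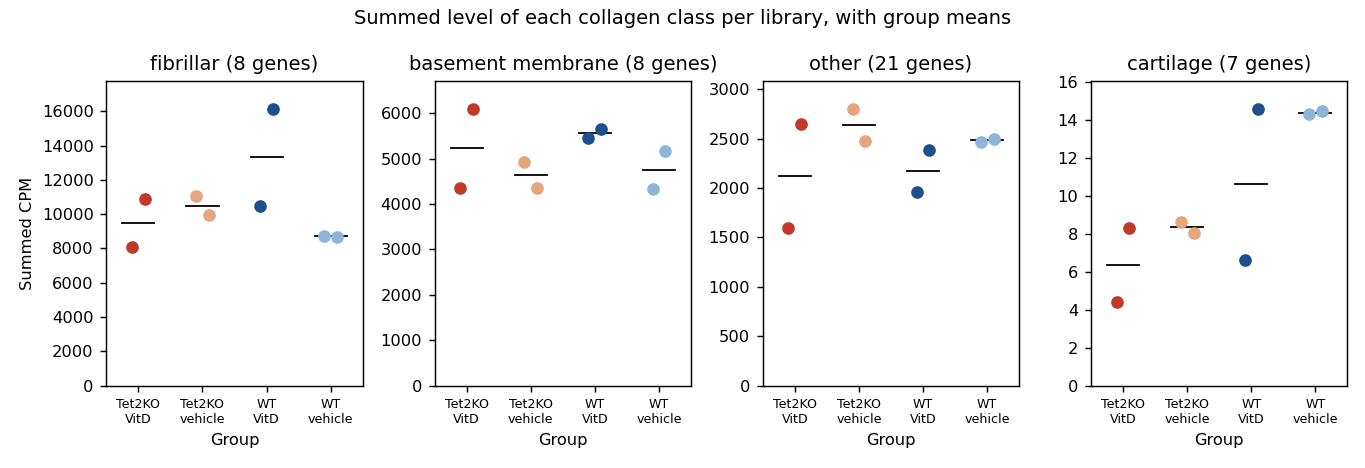
Summed CPM (vertical axis, linear from 0) of the 4 collagen classes in each library (points) with group means (lines), groups along the horizontal axis. WT VitD library 2 has the highest fibrillar sum, 16145 CPM, and the cartilage class never exceeds 14.6 CPM.

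Between WT VitD and WT vehicle a few collagen genes differed strongly, while the most abundant ones, types I and III, had no call. VitD and the library number range cannot be told apart in this comparison. Of the 34 tested genes, 8 passed the test (edgeR quasi-likelihood test, Benjamini-Hochberg adjusted p below 0.05 over all genes), 3 higher and 5 lower. Over all 16194 genes tested, 20.1% were called, 10.6% higher and 9.47% lower, so the share of collagens called is near this background. The 3 that rose were Col8a1, Col5a2 and Col11a1, and the 5 that fell were Col20a1, Col19a1, Col6a6, Col11a2 and Col4a6. At an unadjusted p below 0.05 there were 14 of 34, against 38.0% of all genes, and the libraries of the 2 groups did not overlap in 26 of 34 (76.5%), against 69.2% of all genes. The median log2 fold change was -0.259 over the tested collagens and -0.028 over all genes tested. By class, 1 of 7 fibrillar genes was called higher, 1 of 8 basement membrane genes lower, 1 of 3 cartilage genes higher and 1 lower, and 1 of 16 other genes higher and 3 lower.

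**Figure D2:**
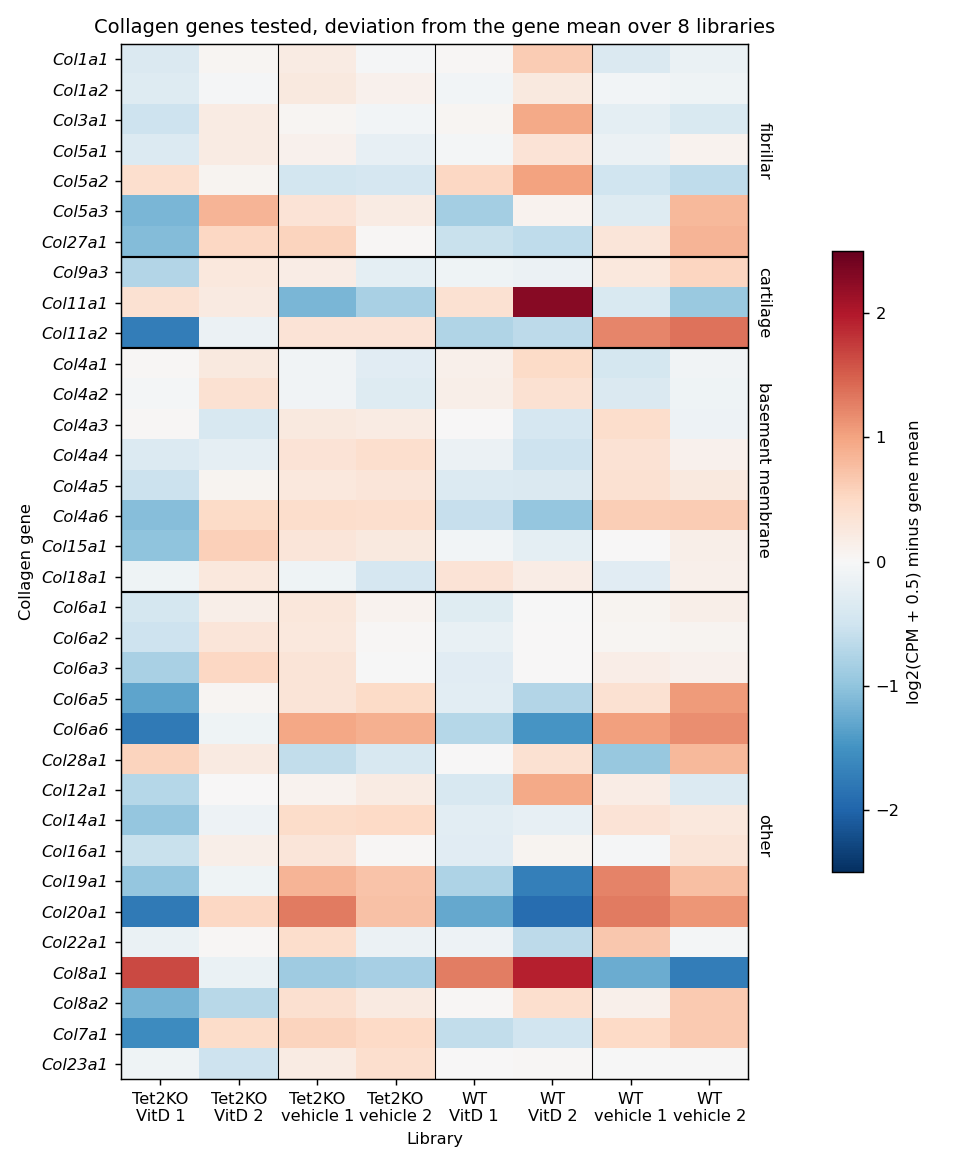
Deviation of log2(CPM + 0.5) from the gene's mean over the 8 libraries (colour) for the 34 tested collagen genes (rows, by class) in each library (columns). Col8a1 is high in both WT VitD libraries and in Tet2KO VitD library 1, while Col20a1, Col19a1 and Col6a6 are low in these 3 libraries.

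Col8a1 (chromosome 16, 57624258 to 57754737, minus strand, mm10) encodes the alpha 1 chain of type VIII collagen and showed the highest rise. It stood at 118 and 186 CPM in WT VitD, against 20 and 14.2 CPM in WT vehicle. Both VitD libraries lay far above both vehicle libraries, an 8.89-fold difference (log2 3.15, SE 0.531, edgeR adjusted p = 0.0106). Its partner gene in type VIII collagen, Col8a2, was not called (log2 -0.19, SE 0.35, edgeR adjusted p = 0.71).

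Among the fibrillar genes, Col5a2 (chromosome 1, 45374321 to 45503282, minus strand), the alpha 2 chain of the type V collagen that nucleates fibrils, rose 2.55-fold. It stood at 1021 and 1424 CPM in WT VitD, against 505 and 456 CPM in WT vehicle (log2 1.35, SE 0.245, edgeR adjusted p = 0.0128). The groups did not overlap. Col5a1, the alpha 1 chain gene of the same type, stood at 520 and 684 CPM in WT VitD against 485 and 569 CPM in WT vehicle, and these overlapped (log2 0.19, SE 0.262).

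The main fibril genes were higher in WT VitD without passing the test. Col3a1, the type III chain gene, stood at 3757 and 6969 CPM in WT VitD, against 3070 and 2787 CPM in WT vehicle (log2 0.87, SE 0.353, edgeR adjusted p = 0.106). It was called higher by DESeq2 (adjusted p = 0.0243) and by edgeR with no filter (adjusted p = 0.00868). EdgeR did not call it with DESeq2 size factors, a replicate block, a length correction or a number range term. Nor was it called by edgeR on only the groups compared. Without Tet2KO_VitD 1 or 2 its log2 was 0.89 and 0.88. Col1a1, which encodes 2 of the 3 chains of a type I molecule, stood at 2356 and 3569 CPM in WT VitD, against 1790 and 2057 CPM in WT vehicle (log2 0.62, SE 0.283, edgeR adjusted p = 0.141). In both genes WT VitD library 2 held the higher value of its pair by a wide margin. Col1a2, which encodes the other type I chain, stood at 2805 and 3451 CPM in WT VitD against 2811 and 2704 CPM in WT vehicle, with overlap between the groups (log2 0.18, SE 0.238). The 2 remaining tested fibrillar genes had log2 values of -0.67 and -1.22, neither called in the main fit, and 1 fibrillar gene was too low to test. The second of them, Col27a1, was called lower by DESeq2 (adjusted p = 0.0259). It was also called lower by edgeR with no filter (adjusted p = 1.91e-05) and on only the groups compared (adjusted p = 0.00801).

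In the basement membrane class the type IV genes had log2 values on both sides of 0, and the chains were not tested against each other. The gene for the alpha 6 chain, Col4a6 (chromosome X, 141165403 to 141474076, minus strand), fell to 119 and 90.2 CPM in WT VitD, against 272 and 276 CPM in WT vehicle, a 2.62-fold difference (log2 -1.39, SE 0.412, edgeR adjusted p = 0.0453). This call was made in 6 of 15 alternative fits, 2 of them among the 8 that leave out a library. It was lost with a replicate block (edgeR adjusted p = 0.0541) and with a correction for transcript length (edgeR adjusted p = 0.0744). The alpha 6 chain is known to assemble with the alpha 5 chain in basement membranes around smooth muscle. The genes of the common alpha 1 and alpha 2 chains lay on the other side of 0. Col4a1 stood at 1312 and 1672 CPM in WT VitD against 880 and 1119 CPM in WT vehicle (log2 0.58, SE 0.242, edgeR adjusted p = 0.116). Col4a2 stood at 1008 and 1195 CPM in WT VitD against 716 and 846 CPM in WT vehicle (log2 0.50, SE 0.241, edgeR adjusted p = 0.164). Neither was called in the main edgeR fit, although the groups did not overlap in either. DESeq2 called Col4a1 higher (adjusted p = 0.0352). The 3 other type IV genes had log2 values between -0.66 and -0.38 and were not called in the main fit. Col4a5 was called lower by DESeq2 (adjusted p = 0.0321) and by edgeR on only the groups compared (adjusted p = 0.0262).

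The multiplexin genes of the basement membrane zone were not called. Col18a1, whose protein releases endostatin, stood at 2233 and 1988 CPM in WT VitD against 1451 and 1920 CPM in WT vehicle (log2 0.32, SE 0.259). Col15a1 stood at 436 and 387 CPM in WT VitD against 461 and 509 CPM in WT vehicle (log2 -0.24, SE 0.419). The groups did not overlap in either gene, and neither difference passed the test.

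Of the beaded filament genes, Col6a6 (chromosome 9, 105687809 to 105828160, minus strand), an alpha chain of type VI collagen, fell 4.64-fold. It stood at 8.41 and 4.75 CPM in WT VitD, against 29.1 and 31.8 CPM in WT vehicle (log2 -2.22, SE 0.494, edgeR adjusted p = 0.0208). Col6a1, the gene of the widely made alpha 1 chain, stood at 503 and 619 CPM in WT VitD against 647 and 690 CPM in WT vehicle and was not called (log2 -0.25, SE 0.251).

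The fibril-associated collagens held the genes that fell most. Col20a1 (chromosome 2, 180986535 to 181018363, plus strand) stood at 3.24 and 1.92 CPM in WT VitD, against 21.9 and 19.0 CPM in WT vehicle, 7.94-fold lower (log2 -2.99, SE 0.683, edgeR adjusted p = 0.0222). Col19a1 (chromosome 1, 24261890 to 24587472, minus strand) stood at 1.99 and 0.792 CPM in WT VitD, against 9.51 and 6.61 CPM in WT vehicle, 5.84-fold lower (log2 -2.54, SE 0.509, edgeR adjusted p = 0.0159). The lower value of Col19a1 rests on 30 and 14 reads in WT VitD, against 153 and 116 reads in WT vehicle. The more abundant Col14a1, whose protein binds fibrils and is typical of fibroblasts, was not called in the main fit (log2 -0.54, SE 0.266, edgeR adjusted p = 0.167). It stood at 283 and 297 CPM in WT VitD against 434 and 412 CPM in WT vehicle. On only the groups compared edgeR called it lower (adjusted p = 0.0458). Col12a1, a gene of stretched connective tissue, stood at 25.9 and 67.2 CPM in WT VitD against 39.3 and 27.3 CPM in WT vehicle, with overlap (log2 0.49, SE 0.415).

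The 16 tested genes outside the fibrillar, basement membrane and cartilage classes include 8 not described so far, from types VI, VII, XVI, XXII, XXIII and XXVIII. These had log2 values between -1.5 and 0.04 for VitD against vehicle in WT, and none was called in the main fit. With no filter edgeR called Col6a5 (adjusted p = 0.0198) and Col7a1 (adjusted p = 0.0288) lower. On only the groups compared it also called both lower (adjusted p of 0.0424 and 0.031).

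The cartilage genes gave no common direction. Col11a1 (chromosome 3, 114030540 to 114220718, plus strand) stood at 2.18 and 9.34 CPM in WT VitD, against 1.06 and 0.570 CPM in WT vehicle, 7.09-fold higher (log2 2.83, SE 0.702, edgeR adjusted p = 0.0272). That is 33 and 165 reads in WT VitD against 17 and 10 reads in WT vehicle, and the 2 VitD libraries differ widely. Col11a2 (chromosome 17, 34039437 to 34066685, plus strand), which encodes another chain of the same type XI collagen, stood at 2.45 and 2.66 CPM in WT VitD, against 11.1 and 12.1 CPM in WT vehicle, 4.52-fold lower (log2 -2.18, SE 0.517, edgeR adjusted p = 0.0244). The 2 type XI genes moved in opposite directions in the same libraries. The third tested gene of the class, Col9a3, was not called (log2 -0.84, SE 0.691).

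The defining genes of cartilage were at the edge of detection. Col2a1, the main fibril collagen of cartilage, had 3 and 11 reads in Tet2KO VitD, 14 and 10 reads in Tet2KO vehicle, 4 and 8 reads in WT VitD, and 4 and 8 reads in WT vehicle. In CPM that is 0.186 and 0.484 in Tet2KO VitD, 0.859 and 0.558 in Tet2KO vehicle, 0.265 and 0.453 in WT VitD, and 0.249 and 0.456 in WT vehicle. Col10a1, the collagen of hypertrophic cartilage, had 7 and 7 reads in Tet2KO VitD, 4 and 4 reads in Tet2KO vehicle, 9 and 7 reads in WT VitD, and 7 and 1 reads in WT vehicle, which is 0.057 to 0.596 CPM. Neither passed the filter in the fit of all 8 libraries, and 3 counts correspond to 0.134 to 0.191 CPM at this depth. Without Tet2KO_VitD 1 Col2a1 did pass it, and was not called for VitD against vehicle in WT (log2 0.05, SE 0.766, edgeR adjusted p = 0.965). Of the other chondrocyte markers, Matn1 had a count in 1 of 8 libraries and Ucma in 2 of 8, with no more than 2 reads, while Acan stood at 70.3 and 68.9 CPM in WT VitD against 29.6 and 26.5 CPM in WT vehicle. The 10 chondrocyte markers in the table summed to 278 and 244 CPM in WT VitD against 179 and 159 CPM in WT vehicle, mostly from Comp, with 3 called higher and 2 lower of 7 tested. Among 8 osteoblast markers, Mepe had no count in any library and Bglap no more than 4 reads. Of the 3 tested, 1 was called higher and 1 lower. Alpl stood at 50.8 and 151 CPM in WT VitD against 13.7 and 13.5 CPM in WT vehicle, and Phex at 3.71 and 1.92 CPM in WT VitD against 14.3 and 8.32 CPM in WT vehicle. The part of these markers in the cartilage collagen values was not tested.

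**Figure D3:**
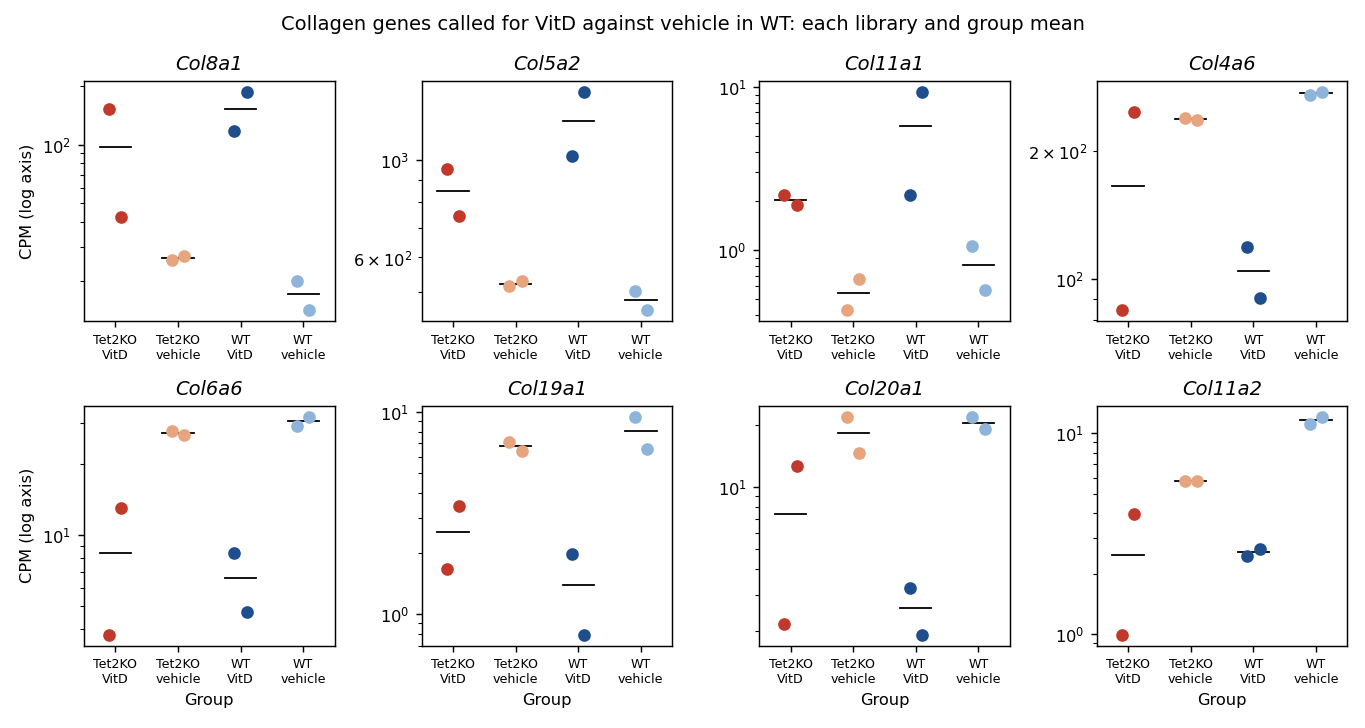
CPM (vertical axis, log scale, its range differing between panels) of the 8 collagen genes called for VitD against vehicle in WT, as points per library with group means as lines, groups along the horizontal axis. The 2 WT groups do not overlap in any panel, while Tet2KO VitD libraries 1 and 2 lie far apart in Col8a1, with 152 and 42.8 CPM, and in Col4a6, with 84.6 and 247 CPM.

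The call count in WT depended on single libraries. Without WT_VitD 2, WT_vehicle 1 or WT_vehicle 2 it was 0 in each case, where 0.828%, 1.33% and 3.53% of all genes were called. Without WT_VitD 1 it was 4, where 5.91% of all genes were called, and without either Tet2KO VitD library it was 15, where 29.1% were called in each fit. It was 7 with a correction for transcript length, where 17.0% were called. With the number range as an added term no collagen gene was called, beside 0.358% of all genes. Since the range coincides with VitD in WT, that term is set by Tet2KO_VitD 1 against Tet2KO_VitD 2, 1 library each. The WT values it gives are the WT difference less the difference of that pair, and do not separate number range from VitD. The genes called higher in WT then had log2 values of 2.63 (Col11a1), 1.32 (Col8a1) and 0.99 (Col5a2). Those called lower had -1.52 (Col19a1), -0.46 (Col20a1), -0.44 (Col6a6), -0.19 (Col11a2) and 0.15 (Col4a6).

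Markers of several other cells moved in the same libraries. The summed level of 8 macrophage markers was 2191 and 2677 CPM in WT VitD against 486 and 500 CPM in WT vehicle, and all 8 were called higher. Of 8 markers of skeletal muscle, a tissue that lies beside the aorta, 7 were called higher, with a sum of 105 and 452 CPM in WT VitD against 31.7 and 34.6 CPM in WT vehicle. All 8 proliferation markers were called higher, with a sum of 106 and 180 CPM in WT VitD against 37.9 and 10.8 CPM in WT vehicle. Of 6 mesothelial markers 4 were called higher, with a sum of 91.5 and 204 CPM in WT VitD against 36.7 and 33.6 CPM in WT vehicle. Endothelial markers summed to 2974 and 2576 CPM in WT VitD against 1599 and 1477 CPM in WT vehicle, and 1 of 8 was called higher. Fibroblast markers summed to 4647 and 4588 CPM in WT VitD against 3786 and 3248 CPM in WT vehicle, with 2 of 8 called higher. Smooth muscle markers were lower in sum, with 2 of 8 called lower. The Schwann cell sum was 229 and 229 CPM in WT VitD against 301 and 267 CPM in WT vehicle, with 0 of 6 called by edgeR and 2 at an unadjusted p below 0.05. Myofibroblast markers summed to 7792 and 7780 CPM in WT VitD against 6806 and 5803 CPM in WT vehicle, with 2 of 6 called higher. Of these 6, 4 had a positive log2 and 2 a negative one. The adipocyte sums, 1630 and 1397 CPM in WT VitD against 1223 and 1930 CPM in WT vehicle, overlapped, and 0 of 6 were called. Ribosomal protein genes took 5.46% and 5.56% of counts in WT VitD against 2.39% and 2.61% in WT vehicle. The share was 4.9% in Tet2KO VitD library 1, of the higher number range, and 2.61% in library 2, against 2.14% and 2.32% in Tet2KO vehicle. A gene's deviation from its mean over libraries also followed transcript length differently. Across the 15702 tested genes with a known length the Spearman correlation was -0.331 and -0.229 in WT VitD against 0.221 and -0.027 in WT vehicle, and -0.063 and 0.174 in Tet2KO VitD against 0.201 and 0.281 in Tet2KO vehicle. The part of these markers, of transcript length and of RNA composition in the collagen values was not tested.

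Promoter letters are shown for the pair of genes with the highest rises and for 2 of the genes that fell, to set their start regions side by side. Each sequence is the 150 bases before the RefSeq transcription start on GRCm38.p6, 5′ to 3′ on the gene's strand, at chr16:57754738-57754887 for Col8a1, chr3:114030390-114030539 for Col11a1, chr2:180986385-180986534 for Col20a1 and chr9:105828086-105828235 for Col6a6. Capitals mark GC boxes (GGGCGG or CCGCCC) and CCAAT boxes (CCAAT or ATTGG). The RefSeq start of Col6a6 lies inside the GENCODE bounds of the gene given above.
Col8a1: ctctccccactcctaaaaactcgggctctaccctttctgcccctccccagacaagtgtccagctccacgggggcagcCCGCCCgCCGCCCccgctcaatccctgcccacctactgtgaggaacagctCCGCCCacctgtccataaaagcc
Col11a1: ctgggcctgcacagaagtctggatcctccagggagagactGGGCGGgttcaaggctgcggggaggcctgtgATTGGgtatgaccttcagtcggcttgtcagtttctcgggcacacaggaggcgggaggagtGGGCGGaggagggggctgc
Col20a1: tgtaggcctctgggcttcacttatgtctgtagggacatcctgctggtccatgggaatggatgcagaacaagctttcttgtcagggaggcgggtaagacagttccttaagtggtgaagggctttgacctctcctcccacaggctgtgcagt
Col6a6: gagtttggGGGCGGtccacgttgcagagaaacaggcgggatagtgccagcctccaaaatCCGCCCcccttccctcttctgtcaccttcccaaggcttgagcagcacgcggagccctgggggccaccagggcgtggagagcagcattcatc
The Col8a1 and Col6a6 stretches, from a gene that rose and one that fell, both hold GC boxes, and neither motif occurs in the Col20a1 stretch. In the 250 bases before the start, a GC box on either strand was found for 21 of the 35 collagen genes in the promoter table (60.0%), against 32.7% of all 32851 promoters. A CCAAT box was found for 13 of the 35 (37.1%, against 33.8% of all promoters), a TATA box (TATAAA, either strand) for 5 (14.3%, against 12.4%), and an AP-1 site (TGANTCA) for 1 (2.86%, against 6.75%). Collagen shares count a gene with the motif in any of its windows, while the shares of all promoters count single windows. The collagen and background shares are therefore not in the same unit. A match describes letters in a window, not a binding site.

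Several collagen genes share a start region, and the data of such pairs can be set side by side. Col4a4 and Col4a3 run away from each other from starts 71 bases apart on chromosome 1. The 71 bases between them (chr1:82586850-82586920, GRCm38.p6, Col4a3 strand, no motif of the 4 above) are shown as the shortest gap between neighbouring collagen genes that do not overlap.
Col4a4-Col4a3: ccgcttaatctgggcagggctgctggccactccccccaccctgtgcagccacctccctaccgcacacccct
These 2 genes had log2 values of -0.57 (SE 0.186) and -0.38 (SE 0.255) for VitD against vehicle in WT, neither called. The annotated starts of Col4a1 and Col4a2 overlap by 22 bases on chromosome 8, so without a stated strand setting reads at the shared end could go to either gene. The starts of Col4a6 and Col4a5 lie 1308 bases apart on the X chromosome. Col4a6 fell while Col4a5 had a log2 of -0.66 (SE 0.232, edgeR adjusted p = 0.0738). Col3a1 and Col5a2 point toward each other on chromosome 1 with 24614 bases between their ends.

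Ratios between chains were read within a library, where depth cancels, as counts per kb. These pairs were chosen after the counts were seen and carry no test. The ratios of Col4a1 to Col4a2 and of Col6a1 to Col6a2 varied little, and those of other chains that share a molecule varied more. Col4a1 over Col4a2 was 1.33 and 1.15 in Tet2KO VitD, 1.26 and 1.30 in Tet2KO vehicle, 1.27 and 1.36 in WT VitD, and 1.2 and 1.29 in WT vehicle. Col6a1 over Col6a2 stayed between 0.954 and 1.12 in all 8 libraries, while Col6a3 over Col6a1 spanned 0.222 to 0.367, both ends in Tet2KO VitD. Col1a1 over Col1a2 was 0.757 and 0.933 in WT VitD against 0.574 and 0.686 in WT vehicle.

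Other pairs moved apart. Col8a1 over Col8a2 was 76.8 and 14.5 in Tet2KO VitD against 3.65 and 4.38 in Tet2KO vehicle, and 22.3 and 26.1 in WT VitD against 3.5 and 1.67 in WT vehicle. All 4 VitD libraries lay above all 4 vehicle libraries. Col11a1 over Col11a2 was 1.73 and 0.377 in Tet2KO VitD against 0.0587 and 0.0910 in Tet2KO vehicle, and 0.704 and 2.77 in WT VitD against 0.0753 and 0.0372 in WT vehicle, again with no overlap, on few reads. Col5a1 over Col5a2 was 0.351 and 0.656 in Tet2KO VitD against 0.883 and 0.687 in Tet2KO vehicle, and 0.401 and 0.379 in WT VitD against 0.757 and 0.984 in WT vehicle. Here all VitD libraries lay below all vehicle libraries, with Tet2KO VitD library 2 at 0.656 close to the vehicle value of 0.687. Col4a5 over Col4a6 was 2.84 and 1.48 in Tet2KO VitD against 1.77 and 1.84 in Tet2KO vehicle, and 2.34 and 3.01 in WT VitD against 1.67 and 1.5 in WT vehicle, with overlap in Tet2KO and none in WT.

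**Figure D4:**
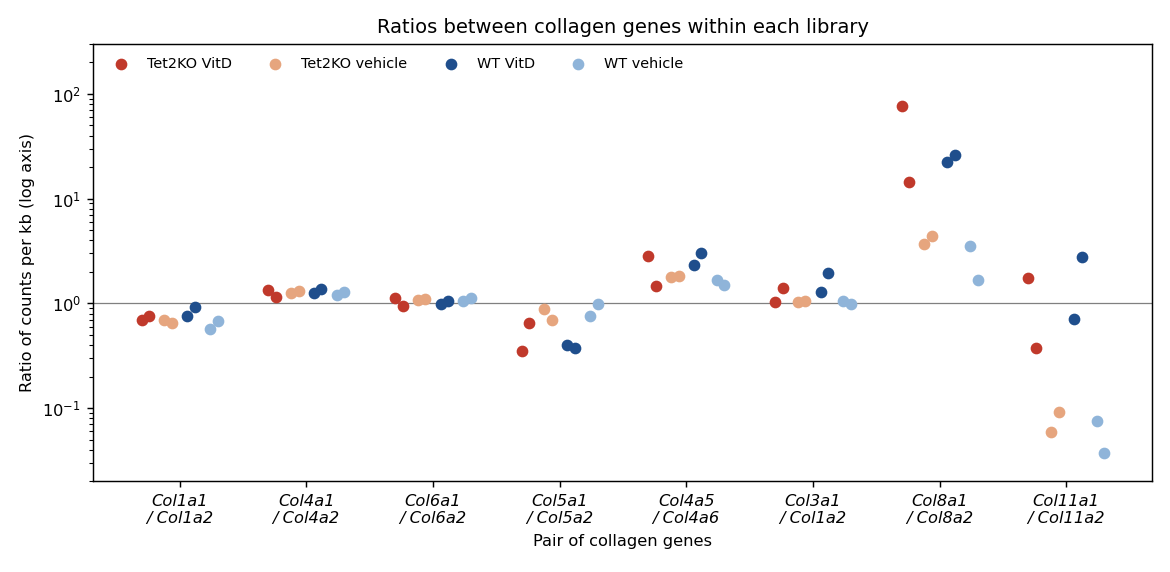
Ratio of counts per kb (vertical axis, log scale) for 8 pairs of collagen genes in each library (points, coloured by group). Col4a1 over Col4a2 and Col6a1 over Col6a2 stay near 1 in all libraries, while Col8a1 over Col8a2 spans 1.67 to 76.8.

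In libraries labelled Tet2KO, VitD against vehicle gave no called collagen gene (0 of 34 by edgeR), where 0.198% of all 16194 genes were called, 0.179% higher and 0.0185% lower. At an unadjusted p below 0.05 there were 10 of 34, against 13.3% of all genes, and DESeq2 called 4, with Col8a1 higher and Col8a2, Col6a6 and Col14a1 lower, where DESeq2 called 2.71% of all genes. The median log2 was -0.341 over the tested collagens and -0.005 over all genes tested. Libraries of the 2 groups did not overlap in 61.8% of the tested collagens, against 45.9% of all genes. Each of the 8 genes called in WT had a log2 value of the same sign here, except Col4a6, at 0.06, once Tet2KO_VitD 1 was left out.

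Col8a1 stood at 152 and 42.8 CPM in Tet2KO VitD, against 25.7 and 26.8 CPM in Tet2KO vehicle (log2 1.89, SE 0.505, edgeR adjusted p = 0.191). Both VitD libraries were above vehicle, library 1 by far more. Col5a2 stood at 950 and 744 CPM in Tet2KO VitD, against 516 and 531 CPM in Tet2KO vehicle (log2 0.69, SE 0.242, edgeR adjusted p = 0.294), and Col11a1 at 2.17 and 1.89 CPM in Tet2KO VitD, against 0.430 and 0.670 CPM in Tet2KO vehicle (log2 1.86, SE 0.725). The groups did not overlap in any of the 3 genes.

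Of the genes that fell in WT, Col6a6 stood at 3.79 and 13.0 CPM in Tet2KO VitD, against 27.7 and 26.5 CPM in Tet2KO vehicle (log2 -1.67, SE 0.48, edgeR adjusted p = 0.22). Col19a1 stood at 1.68 and 3.43 CPM in Tet2KO VitD, against 7.12 and 6.42 CPM in Tet2KO vehicle (log2 -1.39, SE 0.477). Both lay below vehicle in both libraries, as did Col20a1, with 2.17 and 12.6 CPM in Tet2KO VitD against 21.9 and 14.6 CPM in Tet2KO vehicle (log2 -1.28, SE 0.622). Col11a2 stood at 0.994 and 3.96 CPM in Tet2KO VitD, against 5.77 and 5.81 CPM in Tet2KO vehicle (log2 -1.19, SE 0.507). Col4a6 did not separate the groups, with 84.6 and 247 CPM in Tet2KO VitD against 239 and 237 CPM in Tet2KO vehicle (log2 -0.52, SE 0.405).

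The abundant genes showed how far the 2 Tet2KO VitD libraries differ. Col3a1 stood at 2525 and 4172 CPM in Tet2KO VitD against 3739 and 3466 CPM in Tet2KO vehicle. Col1a1 stood at 1790 and 2385 CPM in Tet2KO VitD against 2664 and 2262 CPM in Tet2KO vehicle, and Col1a2 at 2351 and 2866 CPM in Tet2KO VitD against 3467 and 3154 CPM in Tet2KO vehicle. Library 1 was the lowest of the 4 in each of these 3 genes. Col15a1 showed it most among the named genes of the basement membrane zone, with 226 and 691 CPM in Tet2KO VitD against 567 and 542 CPM in Tet2KO vehicle. Col5a1 (423 and 619 CPM in Tet2KO VitD, 578 and 463 CPM in Tet2KO vehicle), Col6a1 (457 and 691 CPM in Tet2KO VitD, 759 and 661 CPM in Tet2KO vehicle) and Col12a1 (21.0 and 35.0 CPM in Tet2KO VitD, 36.7 and 40.0 CPM in Tet2KO vehicle) were also lower in library 1 than in library 2. None of these genes was called.

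Col14a1 was lower with VitD in both libraries, at 176 and 312 CPM in Tet2KO VitD against 471 and 483 CPM in Tet2KO vehicle (log2 -0.97, SE 0.268, edgeR adjusted p = 0.204). Col4a1 stood at 1218 and 1418 CPM in Tet2KO VitD against 1118 and 987 CPM in Tet2KO vehicle, Col4a2 at 892 and 1200 CPM in Tet2KO VitD against 865 and 737 CPM in Tet2KO vehicle, and Col18a1 at 1623 and 2114 CPM in Tet2KO VitD against 1621 and 1304 CPM in Tet2KO vehicle. In these 3 genes both VitD libraries lay above vehicle, barely so in library 1 for Col18a1, and none was called.

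**Figure D5:**
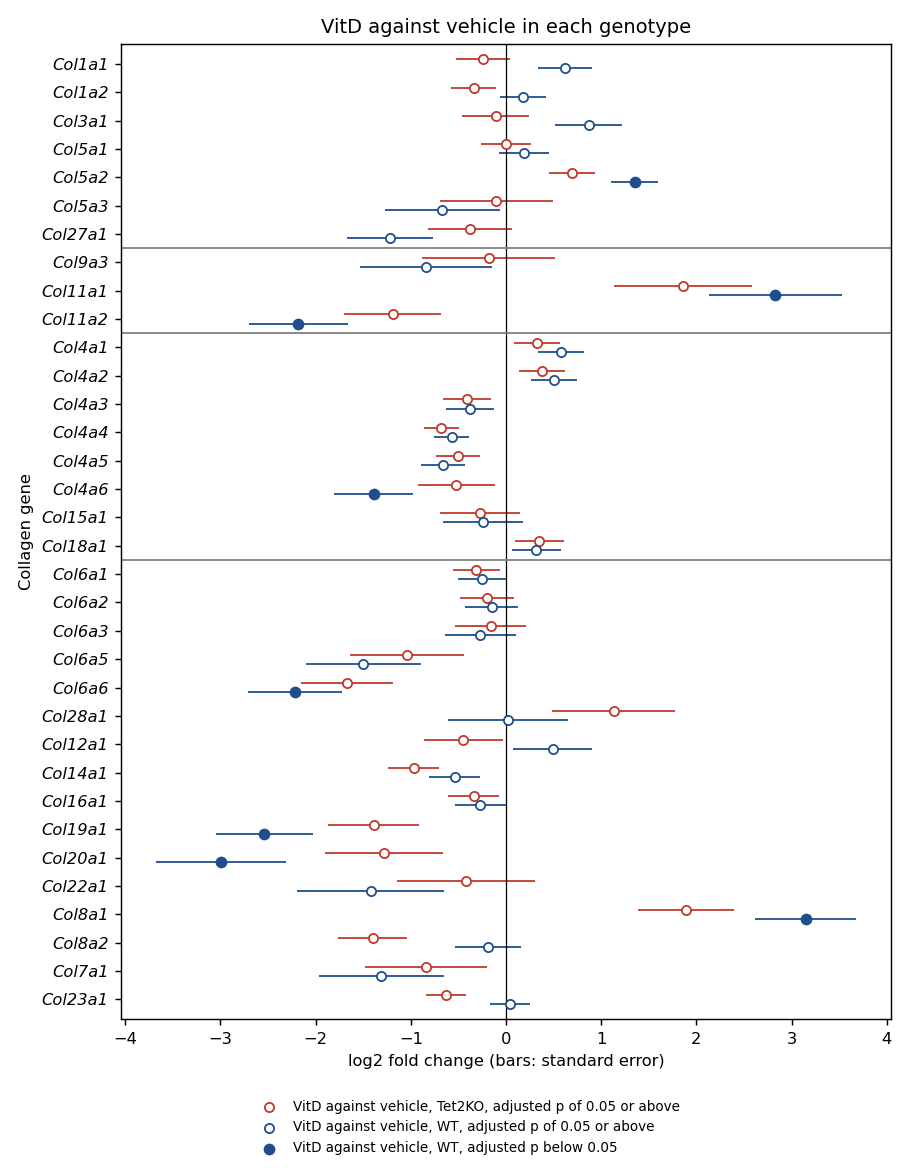
Log2 fold change of VitD against vehicle (horizontal axis, bars are standard errors) for the 34 tested collagen genes (vertical axis), with libraries labelled Tet2KO in red and WT in blue, filled where the adjusted p is below 0.05. Filled points occur in WT alone, and Col8a1, Col5a2 and Col11a1 lie right of 0 in both genotypes.

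The count under the knockout label turned on 1 library. Without Tet2KO_VitD 2 it was 14 of 38 that passed the filter, with 2 higher and 12 lower, where 11.2% of all genes were called, and Col8a1 had a log2 of 2.53, Col20a1 of -3.06 and Col6a6 of -2.83. Without Tet2KO_VitD 1, which leaves libraries of the lower number range alone, it was 0, where 0.13% of all genes were called, and the same genes had 0.71, -0.52 and -1.05. Macrophage markers summed to 2292 and 1296 CPM in Tet2KO VitD against 652 and 776 CPM in Tet2KO vehicle, with 2 of 8 called higher. Endothelial markers summed to 4639 and 1397 CPM in Tet2KO VitD against 1840 and 1969 CPM in Tet2KO vehicle, with library 1 far above the rest. Their part in the collagen values was not tested.

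Between genotypes no collagen gene was called in the main fit. With VitD, Tet2KO against WT gave 0 of 34 by edgeR and by DESeq2. Of all genes, edgeR called 0.0% and DESeq2 0.55%. In edgeR, 3 of 34 were at an unadjusted p below 0.05 (10.6% of all genes). The 3 were Col8a2 (log2 -1.32, SE 0.365), Col11a1 (log2 -1.51, SE 0.647) and Col20a1 (log2 1.54, SE 0.67). Col20a1 was called with no filter on low counts (edgeR adjusted p = 0.000464). Libraries of the 2 genotypes did not overlap in 11.8% of the tested collagens, against 43.8% of all genes. Col5a2, at 950 and 744 CPM in Tet2KO VitD against 1021 and 1424 CPM in WT VitD, was lower in both libraries labelled Tet2KO (log2 -0.53, SE 0.241, edgeR adjusted p = 0.474). Without Tet2KO_VitD 1, 3 genes were called, where 3.97% of all genes were. They were Col20a1 (log2 2.28, edgeR adjusted p = 0.0268), Col4a6 (log2 1.22, edgeR adjusted p = 0.029) and Col8a1 (log2 -1.85, edgeR adjusted p = 0.0309). The Tet2KO VitD library then left has a number of the lower range, and both WT VitD libraries have numbers of the higher range.

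With vehicle, Tet2KO against WT gave 0 of 34 by both edgeR and DESeq2. In edgeR, 0 were at an unadjusted p below 0.05. Of all genes, edgeR called 0.0%, with 2.97% at an unadjusted p below 0.05. All 4 vehicle libraries have numbers in the lower range. The log2 values ran from -1.0 to 0.62 with a median of -0.001, and libraries did not overlap in 35.3% of the tested collagens, against 29.8% of all genes. The lowest was Col11a2, at 5.77 and 5.81 CPM in Tet2KO vehicle against 11.1 and 12.1 CPM in WT vehicle (SE 0.489, edgeR adjusted p = 1.0), with no overlap. The highest was Col8a1, at 25.7 and 26.8 CPM in Tet2KO vehicle against 20 and 14.2 CPM in WT vehicle (SE 0.502).

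Whether VitD moved a gene differently in the genotypes was tested as an interaction. The count was 0 of 34 collagens by edgeR and by DESeq2, and edgeR called 0.0% of all genes. At an unadjusted p below 0.05 it was 1 of 34, Col8a2, against 6.21% of all genes. With no filter on low counts edgeR called Col8a1 (log2 -1.29, SE 0.331, adjusted p = 0.0111) and Col20a1 (log2 1.69, SE 0.442, adjusted p = 0.0134). Estimates of the main fit were wide. For Col8a1 the log2 values of 1.89 in Tet2KO and 3.15 in WT each carried an SE above 0.5, and for Col20a1 the interaction log2 was 1.71 with an SE of 0.902. The calls made in WT alone therefore do not show that the genotypes differed.

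The genes that handle collagen after transcription were listed by role, and 51 of 54 were tested. In WT, 13 of them were called higher and 3 lower with VitD than with vehicle. Over all genes the shares were 10.6% higher and 9.47% lower. The median log2 was 0.251 over the list and -0.028 over all genes. The cross-linking enzymes, which bind chains covalently in the matrix, had 3 of 5 higher and none lower. Lox, the first of them, stood at 788 and 1204 CPM in WT VitD against 405 and 285 CPM in WT vehicle (log2 1.53, SE 0.345, edgeR adjusted p = 0.0213). Loxl4 stood at 27.9 and 36.9 CPM in WT VitD against 10.3 and 7.41 CPM in WT vehicle (log2 1.88, SE 0.293, edgeR adjusted p = 0.00871), and Loxl2 had a log2 of 0.89 (SE 0.237). Both Lox and Loxl4 separated the groups fully.

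Of 15 genes for prolyl and lysyl modification, which the triple helix needs, 3 rose and 1 fell. P4ha3, a prolyl hydroxylase subunit, stood at 7.08 and 19.0 CPM in WT VitD against 1.80 and 1.31 CPM in WT vehicle (log2 3.06, SE 0.542, edgeR adjusted p = 0.0122). P4hb, the shared subunit of that enzyme, and Ppib, a prolyl isomerase, rose by log2 values of 0.95 (SE 0.219) and 0.86 (SE 0.205), and P4ha2 fell by 0.78 on the log2 scale (SE 0.236). In folding and secretion 1 of 8 rose, the isomerase gene Fkbp10, at 165 and 210 CPM in WT VitD against 87.3 and 97.5 CPM in WT vehicle (log2 1.02, SE 0.196, edgeR adjusted p = 0.0144).

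The processing enzymes that trim procollagen ends split, since Adamts2 rose (log2 0.65, SE 0.195, edgeR adjusted p = 0.0481) and Adamts14 fell (log2 -1.36, SE 0.292, edgeR adjusted p = 0.0191) among 7 tested. Collagen receptors split too, among 8 tested. Lair1, an inhibitory receptor of leukocytes, stood at 7.61 and 13.1 CPM in WT VitD against 1.68 and 1.03 CPM in WT vehicle (log2 2.94, SE 0.426, edgeR adjusted p = 0.00667), and Itga10, an integrin chain known from chondrocytes, at 6.22 and 5.26 CPM in WT VitD against 31.5 and 30.4 CPM in WT vehicle (log2 -2.43, SE 0.424, edgeR adjusted p = 0.0116).

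Degradation and uptake genes had 4 of 8 higher and none lower. Mmp14, a membrane-bound collagenase, stood at 180 and 274 CPM in WT VitD against 65.2 and 88.1 CPM in WT vehicle (log2 1.57, SE 0.258, edgeR adjusted p = 0.0101). Mmp13, a secreted collagenase, stood at 2.71 and 6.28 CPM in WT VitD against 0.0622 and 0.456 CPM in WT vehicle (log2 4.06, SE 0.768, edgeR adjusted p = 0.0139), a low level that the size of the fold change rests on. Mmp2, a gelatinase, and Ctsk, a lysosomal protease that cuts collagen, had log2 values of 0.91 (SE 0.201) and 0.88 (SE 0.227), both called. The macrophage marker sums given above moved in the same libraries, and their part in these values was not tested. The count of 16 called fell to 0 without WT_VitD 2, to 2 without WT_vehicle 1 and to 4 without WT_vehicle 2, and was 0 with an added term for the number range.

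In libraries labelled Tet2KO none of the 51 handling genes was called for VitD by edgeR, with 10 at an unadjusted p below 0.05 (13.3% of all genes) and 2 called by DESeq2 (2.71% of all genes). Loxl4 stood at 27.9 and 17.7 CPM in Tet2KO VitD against 8.41 and 9.83 CPM in Tet2KO vehicle, with no overlap (log2 1.32, SE 0.29, edgeR adjusted p = 0.127), and Mmp14 at 181 and 162 CPM in Tet2KO VitD against 101 and 79.9 CPM in Tet2KO vehicle, likewise with no overlap (log2 0.92, SE 0.254, edgeR adjusted p = 0.204). Between genotypes and for the interaction edgeR called none of the handling genes. At an unadjusted p below 0.05 there were 9 of 51 with VitD, 3 with vehicle and 5 for the interaction, against 10.6%, 2.97% and 6.21% of all genes. DESeq2 called 1 with VitD, where it called 0.55% of all genes, and 0 in the other 2. All 8 degradation and uptake genes had a negative log2 for Tet2KO against WT with VitD, and none passed the test. Their median was -0.637, beside 0.028 over all genes tested. A negative log2 was not particular to them, since 37 of all 51 handling genes had one (median -0.257), including all 5 cross-linking genes. Folding and secretion genes and the receptors had 4 of 8 each. Over all genes it was 7681 of 16194. The marker lists did not all move the same way in that contrast. All 8 macrophage (median -0.338), all 8 proliferation (-0.899), all 8 skeletal muscle (-3.66) and all 6 mesothelial markers (-1.36) had a negative log2. A positive log2 was seen in 7 of 8 smooth muscle (median 0.37) and all 6 Schwann markers (median 0.823). The other marker lists were mixed. The part of the markers in the degradation gene values was not tested.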

How the data were processed

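The authors deposited whole-number read counts for each gene symbol, from poly-A enriched and stranded libraries per the labels' protocols. The submitters' processing notes name mm10 as the build and Trimmomatic 0.39, STAR 2.7.8a and featureCounts 2.0.2 as tools. They state no annotation release, strand setting or treatment of multiply mapped reads, so reads of overlapping genes may be split. Group and replicate number came from the sample titles.

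The fit used edgeR 4.0.16 (R 4.3.3) with TMM scaling, filterByExpr (16194 genes kept), 1 mean per group over all 8 libraries (4 residual degrees of freedom), quasi-likelihood F tests and Benjamini-Hochberg adjustment over all genes tested, at a threshold of 0.05. An SE is the log2 fold change divided by the square root of F. Levels between genes use counts per kb of the longest protein-coding GENCODE vM21 transcript. Coordinates come from the same annotation, in which 46384 of 48587 symbols (95.5%) matched 1 gene. Promoter sequences are those of RefSeq on GRCm38.p6, found for 35 of the 44 genes. Of their 38 windows, 35 had a start that matched a GENCODE transcript.

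The members, the gene lists and the tests were chosen with earlier results of these data known. Named with the value in every library were 15 collagen genes set beforehand and every other collagen called in any contrast, and of each handling list up to 4 called genes. Col8a2, Col4a3, Col4a4, Col4a5, Col9a3, Col6a2, Col6a3, Col6a5, Col7a1 and Col27a1 were named after their values were seen. Alternatives were DESeq2 1.42.0, its size factors, no filter, a replicate block, a term for the library number range, only those groups being compared, a correction for transcript length, and leaving out each library. Counts were simulated for 15890 genes in the WT VitD contrast. The fit found 19% of 100 genes with a log2 change of 1. It found 76% of 100 genes with a log2 change of 2, with 8 false calls. Changed genes were a small part of the simulated set, while 20.1% of all genes were called in the WT data. Benjamini-Hochberg adjustment is stricter where fewer genes change. How often the fit finds such changes in the real libraries was therefore not measured. A count of 3 is the limit that a count of 0 allows, and it covers counting error only. Libraries of a group differed by more than sampling noise (chi-square per gene of 26.1 to 105).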

Additional observations from a re-analysis of the deposited data

How the results depend on the processing

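Limits come from 2 libraries per group, 1 library standing apart in Tet2KO VitD, and a number range that coincides with VitD in WT. The cause of the shifts below was not tested. The 8 collagens called for VitD in WT became 0 with a number range term, 7 with a length correction and 13 in a fit of only the groups compared, and 0 to 15 when 1 library was left out. They numbered 12 with DESeq2 or no filter. The number of all genes called rose in these settings too, as given below. For VitD in libraries labelled Tet2KO the count of 0 became 7 with no filter and 4 with DESeq2, and 0 to 14 on leaving out a library. Tet2KO against WT with VitD gave 1 with no filter and 0 to 3 on leaving out a library, the interaction 2 with no filter, and Tet2KO against WT with vehicle 0 in each setting run. Handling genes called for VitD in WT, 16, became 0 with a number range term and 0 to 22 on leaving out a library. For VitD in Tet2KO they became 6 with no filter, 2 with DESeq2 and 0 to 5 on leaving out a library. With VitD, Tet2KO against WT gave 3 with no filter, 1 with DESeq2 and 0 to 4 on leaving out a library, with vehicle 1 with no filter, and the interaction 4 with no filter and 0 to 1 on leaving out a library. Calls over all genes moved as well. For VitD in WT they were 3251 of 16194 in the main fit and 4049 of 16194 with DESeq2. They were 4808 of 28001 with no filter and 4597 of 15413 on only the groups compared. With no filter they rose from 32 of 16194 to 1225 of 28001 for VitD in Tet2KO. For Tet2KO against WT they rose from 0 of 16194 to 610 of 28001 with VitD and 164 of 28001 with vehicle. A group left with 1 library was assumed to vary like the others. In WT the range term subtracts the difference of the 2 Tet2KO VitD libraries, and in Tet2KO it leaves nearly the values without Tet2KO_VitD 1 (Col8a1 0.70 against 0.71). Signs turned for single genes. In WT, with a number range term, log2 was 0.34 for Col6a1, 1.37 for Col15a1, 0.29 for Col14a1 and 0.15 for Col4a6, and leaving out a library gave -0.01 (without WT_VitD 2) to 0.42 for Col5a1 and -0.36 (without WT_VitD 2) to 1.05 for Col12a1. In Tet2KO, Col4a6 had 0.05 with that term and -1.49 to 0.06 (without Tet2KO_VitD 1) on leaving out a library. The interaction with that term was -0.36 for Col11a2, -0.10 for Col4a6, -0.62 for Col6a6 and -0.07 for Col20a1. On leaving out a library it spanned -0.36 to 1.62 for Col11a2, -0.11 to 1.43 for Col4a6, -0.62 to 1.15 for Col6a6 and -0.08 to 2.45 for Col20a1, negative without Tet2KO_VitD 2, and -1.69 to 0.44 for Col11a1, positive without WT_VitD 2. Replicate numbers did not pair the libraries, since the deviations of same-numbered libraries correlated at -0.115 to 0.138 across genes. A replicate block left 7 of the 8 WT collagen calls (Col4a6 lost) and 15 handling calls in WT, and 0 in the other 4 contrasts.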
